A study of Mus musculus with 14 samples.

Results

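The genes described here encode 10 transcription factors that antigen-receptor signalling is known to switch on in T cells. They are the orphan nuclear receptors Nr4a1, Nr4a2 and Nr4a3, the zinc finger factors Egr2 and Egr3, the HMG-box factors Tox and Tox2, the calcium-responsive factor Nfatc1, the NF-kB subunit Rel and the growth regulator Myc. They were taken as a named list, not by a cut-off on a measured value, but with earlier results of these data known. All 10 were found among the 25124 genes of the count table. RNA was sequenced from CD4 T cells sorted out of mesothelioma grown under the skin of mice, to ask what blocking PD-L1, which binds the inhibitory receptor PD-1, does to regulatory T cells (Tregs). Tregs express Foxp3 and hold other T cells in check. PD-1+ Tregs gave 3 libraries under anti-PD-L1 (clone MIH5) and 2 under the isotype antibody (clone 2A3). PD-1- Tregs gave 2 and 2, and CD4 T cells sorted as non-Tregs gave 3 and 2. All groups share the rest of the design. The mice were labelled female, 8 to 12 weeks old, of C57BL/6 background and of genotype GATIR Foxp3Cre-rfp Gata3Cre-yfp. They carried AE17-OVA, a mesothelioma line that makes the model antigen ovalbumin, and received 200 µg of antibody into the peritoneal cavity on day 10, with the sort on day 13. The sort used CD4, CD25, PD-1 and a red reporter of Foxp3. The sources used here do not say which libraries share animals or pools, so a p-value speaks only of the spread among libraries, which may in part be technical.

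When a T cell receptor binds antigen, calcium entry activates calcineurin, which sends NFAT factors such as Nfatc1 to the nucleus. Parallel branches release NF-kB subunits such as Rel and, through ERK, induce Egr and Nr4a genes within a short time. Signalling that lasts is known to keep Nr4a genes and Tox on, as in exhausted CD8 T cells, while Egr2 and Egr3 restrain T cell activation. Nr4a factors and Rel are also known to act in Treg development, and PD-1 dampens signalling close to the receptor.

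The control regions of 4 members are shown because the Nr4a genes share a feature there and because Nr4a2 and Egr2 set PD-1- Tregs apart below. RefSeq promoter windows of GRCm38.p6, the build named mm10 in the submitters' notes, reach from 250 bases before to 50 bases after a gene start. The table held such windows for 6 members, Nr4a1, Nr4a2, Nr4a3, Egr2, Tox2 and Rel. A search on both strands was made for TGACG, the shared part of CREB and ATF sites, which lies within the full site TGACGTCA. The windows of Nr4a1, Nr4a2 and Nr4a3 each held 4 matches. Of all 32851 windows, 20.8% held at least 1 match and 0.231% held 4 or more, a limit chosen after the members' counts were seen. The Egr2 window printed below held 2 matches and a CArG box, the binding site of serum response factor, found in 1.63% of windows. Egr2 also had other windows. That from 67535249 held neither, and that from 67537316 held a CArG box but no match. Those from 67537620 and 67537680 overlap the printed one and held the same. None of the 14 windows used for members held the full site TGACGTCA (in 1.79% of all windows). Nor did any hold AAAGGTCA, the site that Nr4a proteins bind as monomers (in 1.51%). The NFAT core GGAAA was in 61.3% of windows. The MYC-bound E-box CACGTG was in 7.15%. The bases before each start are printed 5′ to 3′ on the gene's strand, with TGACG or its reverse complement and the CArG box in capitals. For Nr4a3 they end where an annotated exon of another transcript begins, so 3 of its 4 matches are printed. The windows of Nr4a1, Nr4a3 and Egr2 belong to starts inside the gene's annotated span, not its outermost start. Matches are letters in the reference, not measured binding.
Nr4a1 (chr15:101266596-101266845, plus strand): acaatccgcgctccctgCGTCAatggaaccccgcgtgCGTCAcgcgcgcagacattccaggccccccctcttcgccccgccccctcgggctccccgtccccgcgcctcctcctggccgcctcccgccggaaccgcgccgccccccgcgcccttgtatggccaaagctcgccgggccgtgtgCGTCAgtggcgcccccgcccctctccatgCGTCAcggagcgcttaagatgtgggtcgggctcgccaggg
Nr4a2 (chr2:57124004-57124253, minus strand): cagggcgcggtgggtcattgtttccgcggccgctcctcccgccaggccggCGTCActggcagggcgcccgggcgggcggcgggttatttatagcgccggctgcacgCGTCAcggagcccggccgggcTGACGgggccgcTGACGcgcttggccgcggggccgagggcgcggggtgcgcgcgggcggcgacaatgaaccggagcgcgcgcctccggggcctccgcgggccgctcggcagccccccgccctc
Nr4a3 (chr4:48045055-48045152, plus strand): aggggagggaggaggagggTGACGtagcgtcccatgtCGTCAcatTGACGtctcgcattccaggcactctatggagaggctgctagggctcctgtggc
Egr2 (chr10:67537619-67537868, plus strand): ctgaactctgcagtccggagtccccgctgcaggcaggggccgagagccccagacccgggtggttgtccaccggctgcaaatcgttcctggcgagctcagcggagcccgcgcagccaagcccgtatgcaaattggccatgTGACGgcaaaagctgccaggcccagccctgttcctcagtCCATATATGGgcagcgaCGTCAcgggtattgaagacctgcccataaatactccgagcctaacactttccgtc

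Library totals ran from 10638848 to 15030804 counts. At least 1 count was found for 9662 to 11312 genes in PD-1+ Tregs, 8027 to 8801 in PD-1- Tregs and 12119 to 14535 in CD4 T cells. Markers of macrophages and monocytes, which the sort should remove, were present in every library. Their sum over 15 genes was 4718 to 8401 CPM (counts scaled to a common library size) in PD-1+ Tregs, 534 to 1134 CPM in PD-1- Tregs and 3143 to 7859 CPM in CD4 T cells. Of the 15, 10 to 11 were detected in each PD-1- library, and C1qa was at 0 in all of these. Foxp3 stood at 15.9 to 156 CPM in PD-1+ Tregs, 114 to 198 CPM in PD-1- Tregs and 16.3 to 55.0 CPM in CD4 T cells, so PD-1+ Tregs overlapped CD4 T cells. A Treg marker list summed to 2149 to 3638 CPM in PD-1+ Tregs, 2261 to 3333 CPM in PD-1- Tregs and 526 to 1605 CPM in CD4 T cells. Although all mice were labelled female, 4 Y-linked genes summed to 208 to 285 CPM in 3 libraries and at most 0.0849 CPM in the other 11. The 3 are 1 treated library of each population, and all carry number 3 in the bracketed sample names of their titles. The labels do not say what that number marks. Results are also given without the 3. In bulk RNA, fewer cells of a type and less RNA per cell cannot be told apart.

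Levels between genes were compared per length, as the authors' RPKM, which scales reads by transcript length and by mapped reads. Over the 14 libraries the median was highest for Nr4a1 at 146 RPKM, then Myc at 72.0, Tox at 69.5 and Nfatc1 at 23.5 RPKM. Egr2 had a median of 9.65 RPKM, Rel 7.19, Nr4a2 3.68, Egr3 2.55, Tox2 1.92 and Nr4a3 0.592 RPKM. Ranked by median within each population, neighbouring genes overlapped between libraries, except Tox above Nfatc1 in CD4 T cells. Nr4a1 and Nr4a3, from the same family, stood far apart. Nr4a1 had a median of 147 RPKM (range 60.5 to 173) in PD-1+ Tregs, 110.3 RPKM (range 29.7 to 189) in PD-1- Tregs and 146 RPKM (range 82.2 to 149.5) in CD4 T cells. Nr4a3 had a median of 0.369 RPKM (range 0 to 4.34) in PD-1+ Tregs, 0.0530 RPKM (range 0 to 0.252) in PD-1- Tregs and 2.06 RPKM (range 0.814 to 2.44) in CD4 T cells. All further levels are CPM after scaling between libraries, and serve to compare 1 gene between libraries.

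**Figure D1:**
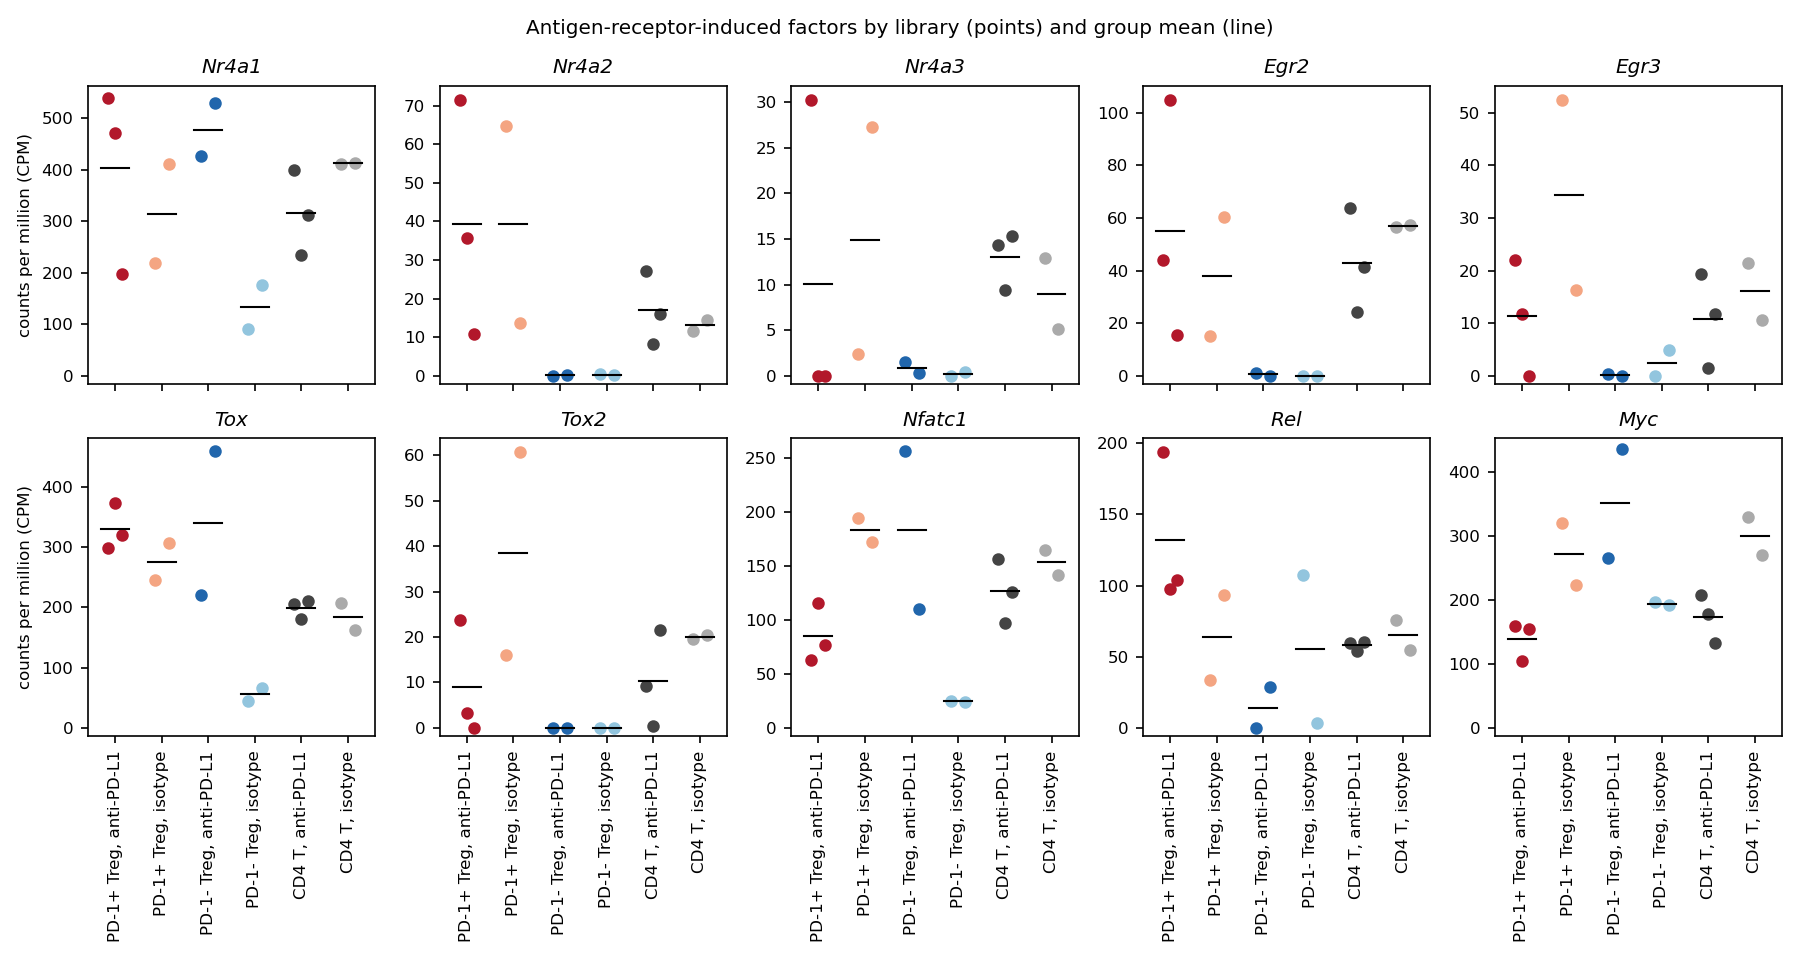
Each panel plots 1 gene in CPM (y axis, linear, from 0) for the 6 groups (x axis), with a point per library and a line at the group mean. Nr4a2, Nr4a3, Egr2, Egr3 and Tox2 lie under 6 CPM in all 4 PD-1- Treg libraries, while Nr4a1 and Myc are above 90 CPM in every library.

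PD-1- Tregs held almost no transcript of Nr4a2, a nuclear receptor that acts without a known ligand. In PD-1+ Tregs, Nr4a2 stood at 71.6, 35.6 and 10.7 CPM in the anti-PD-L1 libraries and 64.9 and 13.7 CPM in the isotype libraries. In PD-1- Tregs it stood at 0 and 0.0841 CPM under anti-PD-L1 and 0.372 and 0.0905 CPM under isotype. CD4 T cells had 27.1, 8.08 and 16.0 CPM of it under anti-PD-L1 and 11.7 and 14.3 CPM under isotype. The highest PD-1- library was thus below the lowest library of either other population. Mean levels were 39.3 ± 28.2 CPM in PD-1+ Tregs and 0.137 ± 0.162 CPM in PD-1- Tregs (SD, n = 5 and 4), from 2335 and 6 reads in all. The difference passed the test (log2 change 8.47 ± 1.56, adjusted p = 0.0106, edgeR's quasi-likelihood test with Benjamini-Hochberg adjustment over 13434 genes, as for every adjusted p below unless another tool is named). Folds between populations average the log2 means of the treated and isotype groups with equal weight, so they need not equal the ratio of the means. PD-1- Tregs were also lower than CD4 T cells, at 0.137 ± 0.162 against 15.4 ± 7.16 CPM (log2 change -7.07 ± 1.47, adjusted p = 0.0221). Their sizes rest on few PD-1- reads. Without treated PD-1- replicate 2 the log2 changes were 9.66 and -8.26, and without isotype PD-1- replicate 1 9.11 and -7.73. Without isotype PD-1+ replicate 1 the difference between Treg populations was 7.74. The call against CD4 T cells was kept in 18 of 24 alternatives (adjusted p 4.05e-10 to 0.0802). It was lost without isotype CD4 replicate 1 (adjusted p = 0.0725) or 2 (0.0781) and without treated CD4 replicate 1 (0.0632) or 3 (0.0579), though not without all 3 libraries with Y-linked reads (0.0486).

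Egr2, a zinc finger factor of the ERK and NFAT branches, was likewise nearly absent from PD-1- Tregs. In PD-1+ Tregs, Egr2 stood at 44.2, 105 and 15.5 CPM in the anti-PD-L1 libraries and 15.0 and 60.5 CPM in the isotype libraries. In PD-1- Tregs it stood at 0.887 and 0 CPM under anti-PD-L1 and 0 and 0 CPM under isotype. CD4 T cells had 63.7, 24.1 and 41.2 CPM of it under anti-PD-L1 and 56.4 and 57.1 CPM under isotype. Only 1 of the 4 PD-1- libraries held any read of it. Means were 48.0 ± 37.3 CPM in PD-1+ Tregs and 0.222 ± 0.444 CPM in PD-1- Tregs, with no overlap (adjusted p = 0.0107). PD-1- Tregs were likewise below CD4 T cells, at 0.222 ± 0.444 against 48.5 ± 16.0 CPM (SD, n = 4 and 5; adjusted p = 0.0122). No fixed fold can be given, since the isotype PD-1- libraries held no read and the 12 reads of the treated ones came from replicate 1. Over 24 alternatives the fitted log2 change ran from 3.41 to 12.14 between the Treg populations and from -12.27 to -3.89 against CD4 T cells, farthest from 0 without that replicate. PD-1+ Tregs and CD4 T cells overlapped (log2 change -0.12 ± 1.01, adjusted p = 1). Without the 3 libraries with Y-linked reads, Egr2 still passed in PD-1+ against PD-1- Tregs (adjusted p = 0.0182), as did Nr4a2 (adjusted p = 0.0264). Within a fit of only the Treg libraries compared, neither passed (Nr4a2, adjusted p = 0.174; Egr2, adjusted p = 0.189). Over 24 alternatives their adjusted p ran over 2.99e-14 to 0.174 for Nr4a2 and 1.42e-13 to 0.189 for Egr2. In contrasts within 1 treatment, added after the data were seen, neither passed against PD-1- Tregs under anti-PD-L1 (1.77% of genes called; Nr4a2, adjusted p = 0.0573; Egr2, adjusted p = 0.114) or under isotype (0.871% called; Nr4a2, adjusted p = 0.129; Egr2, adjusted p = 0.0652).

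Tox2, Egr3 and Nr4a3 were low in PD-1- Tregs too, but did not pass the test. Tox2, a relative of Tox (chr2:163203058-163324172, GRCm38.p6), had no read in any PD-1- library. It stood at 23.7, 3.21 and 0 CPM in treated and 16.1 and 60.7 CPM in isotype PD-1+ Tregs, so 1 treated library also had none. Its level in CD4 T cells was 9.16, 0.462 and 21.5 CPM under anti-PD-L1 and 19.6 and 20.3 CPM under isotype. Set against a floor of 3 counts per library, mean Tox2 was at least 81.0-fold higher in PD-1+ than in PD-1- Tregs (adjusted p = 0.051). PD-1- Tregs were at least 55.5-fold lower than CD4 T cells (adjusted p = 0.0573). Egr3, which acts beside Egr2 (chr14:70077317-70082613), stood at 0.222 and 0 CPM in treated and 0 and 4.89 CPM in isotype PD-1- Tregs. Its levels were 22.1, 11.8 and 0 CPM in treated and 52.5 and 16.3 CPM in isotype PD-1+ Tregs. Egr3 in CD4 T cells was at 19.3, 1.39 and 11.8 CPM under treatment and 21.4 and 10.6 CPM under isotype. Both comparisons overlapped (PD-1+ against PD-1- Tregs, log2 change 5.17 ± 2.15, adjusted p = 0.177; PD-1- Tregs against CD4 T cells, log2 change -4.59 ± 2.09, adjusted p = 0.171). Nr4a3 stood at 1.48 and 0.252 CPM in treated and 0 and 0.453 CPM in isotype PD-1- Tregs. It was uneven in PD-1+ Tregs, with 30.3, 0 and 0 CPM under anti-PD-L1 and 2.38 and 27.3 CPM under isotype. CD4 T cells were steadier, at 14.4, 9.39 and 15.4 CPM under anti-PD-L1 and 12.9 and 5.07 CPM under isotype, all above PD-1- Tregs (log2 change -4.57 ± 2.28, adjusted p = 0.209).

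Counted together, 3 of the 10 members passed as higher in PD-1+ than in PD-1- Tregs, where 3.8% of all genes passed as higher and 4.28% in either direction. In PD-1- Tregs against CD4 T cells 2 members passed as lower, where 3.33% of genes passed as lower and 3.6% in either direction. In PD-1+ Tregs against CD4 T cells no member passed, where 0.35% of genes did. The median gene was itself shifted, by 0.42 on the log2 scale in PD-1+ against PD-1- Tregs and by -0.94 in PD-1- Tregs against CD4 T cells. All 10 members averaged at least 10 CPM in CD4 T cells, and 5 of them were under 6 CPM in each of the 4 PD-1- libraries, a limit chosen after the values were seen. Of all 8872 genes that averaged at least 10 CPM in CD4 T cells, 5.78% were under 6 CPM in the 4 PD-1- libraries and 2.71% had no read there. These genes were not matched by level to the 5 members, which averaged 11.4 (Nr4a3) to 48.5 CPM (Egr2) in CD4 T cells. The same PD-1- libraries had the fewest genes detected and the lowest macrophage and monocyte marker sums of the 3 populations, as given above. A list of dendritic cell and MHC class II genes gave 8654 to 15287 CPM in PD-1- Tregs, with Zbtb46, Xcr1 and Batf3 at 0, 19689.6 to 48125 CPM in PD-1+ Tregs and 15474 to 28433 CPM in CD4 T cells. The part of other cells and of gene detection in these differences was not tested.

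**Figure D2:**
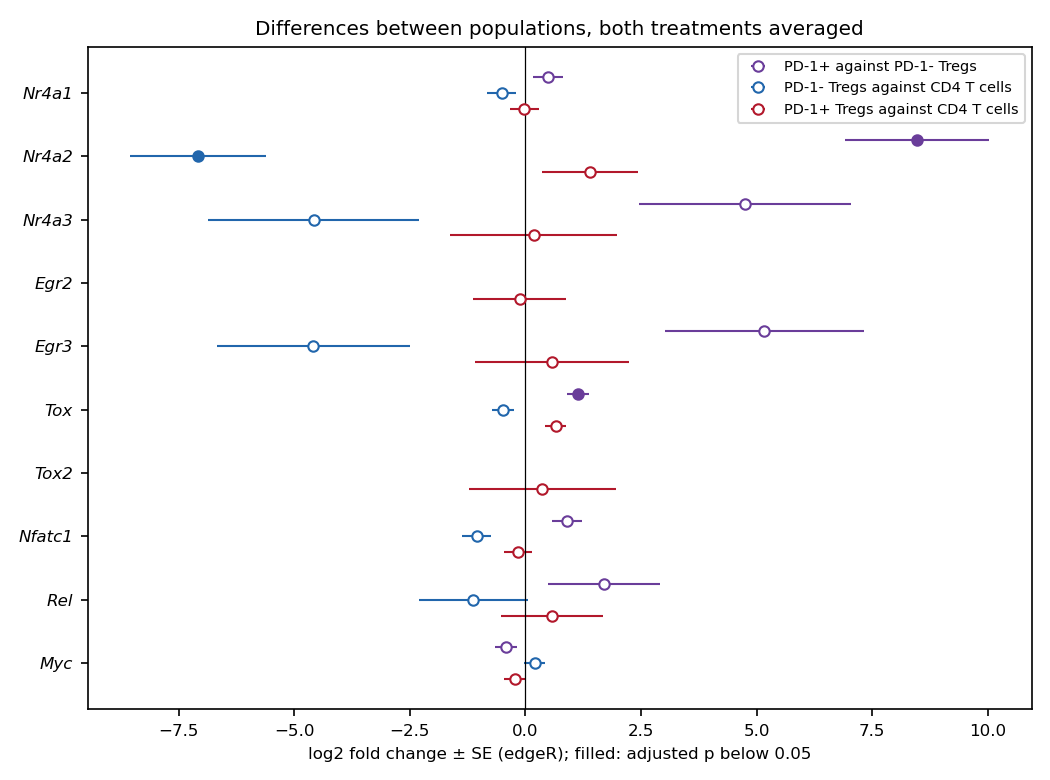
Points give each member's log2 fold change between populations (x axis, ± SE from edgeR), coloured by comparison, and filled where the adjusted p was below 0.05. Tox2 and Egr2 are left out of the comparisons with PD-1- Tregs, where a group had no read. Nr4a2 lies farthest from 0 among the members drawn in both comparisons that involve PD-1- Tregs.

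The genes most like each member over the 14 libraries, among 8825 genes averaging at least 10 CPM, were named by the correlation of log2 CPM, as a description. The libraries share populations, depth and the marker differences above. For Nr4a2 they were Lcorl (r = 0.99), Tmbim1 (r = 0.97) and Cbr2 (r = 0.97). For Egr2 they were Ccr1 (r = 0.98), C5ar1 (r = 0.97) and Zfp58 (r = 0.97). The first 2 of these encode a chemokine receptor and the receptor of complement C5a. For Tox2 they were Commd5 (r = 0.96), Dtnbp1 (r = 0.96) and Sostdc1 (r = 0.96), and for Egr3 Ndc80 (r = 0.94), Timp1 (r = 0.94) and Clec4b1 (r = 0.93). Among the members, Nr4a2 and Egr2 had r = 0.90 over all libraries but r = -0.06 once each population's mean was removed. Egr3 and Tox2 had r = 0.88 over all libraries and r = 0.77 within populations.

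**Figure D3:**
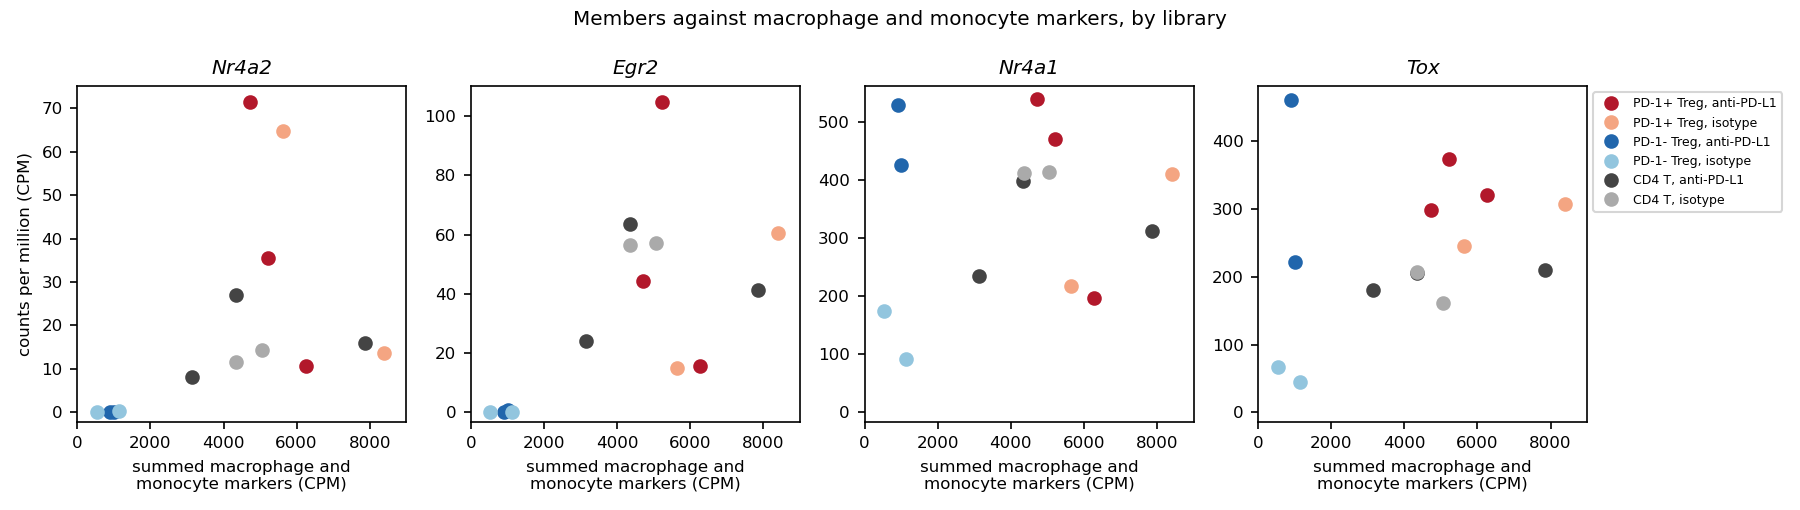
Each panel plots the CPM of Nr4a2, Egr2, Nr4a1 or Tox (y axis, linear) against the summed CPM of 15 macrophage and monocyte markers (x axis, linear), with a point per library, coloured by group. The 4 PD-1- Treg libraries lie at marker sums of 534 to 1134 CPM, left of all others, where Nr4a2 and Egr2 are under 1 CPM and Nr4a1 and Tox are not.

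Tox and Nfatc1 were the members that rose under anti-PD-L1, and did so in PD-1- Tregs. Tox, an HMG-box factor known to maintain exhausted CD8 T cells (chr4:6686353-6991557), stood at 221 and 460.4 CPM in treated PD-1- Tregs, against 44.8 and 66.4 CPM in isotype PD-1- Tregs. Both treated libraries lay above both isotype libraries, though the treated ones differed from each other by more than the isotype ones did. Means were 341 ± 169 CPM under anti-PD-L1 and 55.6 ± 15.3 CPM under isotype (SD, n = 2 each; log2 change 2.62 ± 0.37, adjusted p = 0.00402). Nfatc1, an NFAT factor that raises its own expression in stimulated lymphocytes, stood at 256 and 109.9 CPM in treated PD-1- Tregs, against 24.7 and 24.2 CPM in isotype PD-1- Tregs. Its means were 183 ± 104 CPM under anti-PD-L1 and 24.4 ± 0.362 CPM under isotype (log2 change 2.91 ± 0.50, adjusted p = 0.00992). In this comparison 2 of 10 members passed as higher, where 1.38% of all genes passed as higher and 2.66% in either direction.

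The 2 changes held their calls in 22 of 24 alternatives each, with adjusted p of 5.90e-11 to 0.705 for Tox and 4.91e-09 to 0.705 for Nfatc1. They were lost with limma-voom (adjusted p = 0.114 for Tox and 0.191 for Nfatc1) and when only the 4 PD-1- libraries entered the fit (adjusted p = 0.705 for both). Without treated PD-1- replicate 1 the log2 change was 3.04 for Tox (adjusted p = 0.000256) and 2.16 for Nfatc1 (adjusted p = 0.0128). Without replicate 2, which held Y-linked reads, it was 1.98 for Tox (adjusted p = 0.00547) and 3.38 for Nfatc1 (adjusted p = 0.00197). Without all 3 libraries with Y-linked reads it was 1.96 for Tox (adjusted p = 0.0174) and 3.37 for Nfatc1 (adjusted p = 0.00827). Each of these fits has 1 treated PD-1- library, which is assumed to vary like the other groups. Replicates were not equally alike across groups. A chi-square for the difference of 2 replicates, divided by its degrees of freedom, was 451 in treated and 325 in isotype PD-1- Tregs. It was 148 to 231 among PD-1+ Treg libraries and 27.7 to 76.9 among CD4 T cell libraries. The main fit pools its spread over all 6 groups too. With only PD-1- libraries in the fit, 0 genes were called. The part of pooling in the 2 calls was not tested. The PD-1- libraries also differed by treatment in the share of counts on Actb, which was 3.16 and 2.74% under anti-PD-L1 and 6.53 and 8.71% under isotype. In PD-1+ Tregs that share ran the other way, at 6.47, 5.88 and 7.27% under anti-PD-L1 and 4.26 and 3.60% under isotype. Its part in the values of Tox and Nfatc1 was not tested.

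The other populations did not show that rise. Tox stood at 298, 373 and 320.4 CPM in treated and 245 and 307 CPM in isotype PD-1+ Tregs (log2 change 0.26 ± 0.32, adjusted p = 1). Tox in CD4 T cells was at 206, 180.1 and 210.2 CPM under anti-PD-L1 and 208 and 162 CPM under isotype (log2 change 0.11 ± 0.32, adjusted p = 1), so the treatment groups overlapped in both populations. Nfatc1 stood at 63.2, 116 and 76.3 CPM in treated and 194 and 172 CPM in isotype PD-1+ Tregs, all treated libraries lower, without passing the test (log2 change -1.10 ± 0.42, adjusted p = 0.596). Its level in CD4 T cells was 156, 97.0 and 126 CPM under anti-PD-L1 and 164 and 142 CPM under isotype (log2 change -0.28 ± 0.42, adjusted p = 1). The difference between the treatment effects was tested itself. Between PD-1+ and PD-1- Tregs it passed for Tox (log2 change -2.35 ± 0.48, adjusted p = 0.0351) and for Nfatc1 (log2 change -4.01 ± 0.65, adjusted p = 0.0107), where 1.46% of genes passed. Between PD-1- Tregs and CD4 T cells it passed for both as well (Tox, log2 change 2.51 ± 0.48, adjusted p = 0.0291; Nfatc1, log2 change 3.18 ± 0.64, adjusted p = 0.0374), where 0.975% of genes passed. Between PD-1+ Tregs and CD4 T cells neither passed, and no gene of 13434 did (0%), with 470 genes at an unadjusted p below 0.05 in edgeR and 312 called by DESeq2. These differences depended more on single libraries. Between PD-1+ and PD-1- Tregs, the call was kept in 8 of 24 alternatives for Tox (adjusted p 4.99e-05 to 0.241) and in 20 for Nfatc1 (adjusted p 4.89e-09 to 0.179), which lost it without isotype PD-1+ replicate 1 (adjusted p = 0.0554). Between PD-1- Tregs and CD4 T cells it was kept in 11 of 24 for Tox (adjusted p 1.20e-05 to 0.253) and in 11 for Nfatc1 (adjusted p 6.08e-06 to 0.254). Leaving out any 1 CD4 library, or either isotype PD-1+ library, ended both of those calls. It also ended that of Tox between the Treg populations. That of Tox between the Treg populations was also lost without isotype PD-1- replicate 1 (adjusted p = 0.0566) and treated PD-1+ replicates 1 (0.0724) and 3 (0.0605). Without treated PD-1- replicate 2 the differences for Tox were -1.75 and 1.86 (adjusted p = 0.0385 and 0.0327), and without replicate 1 those for Nfatc1 were -3.31 and 2.46 (adjusted p = 0.00521 and 0.0269). Without the libraries with Y-linked reads Nfatc1 passed in both (adjusted p = 0.0128 and 0.0233) and Tox in neither (adjusted p = 0.0965 and 0.0736). Averaged over the 3 populations, Tox was the 1 member that passed (log2 change 0.99 ± 0.19, adjusted p = 0.0313, where 1.23% of genes passed). It did not pass without the libraries with Y-linked reads (adjusted p = 0.0769), and kept its call in 10 of 23 alternatives (adjusted p 1.68e-05 to 0.224). Leaving out any 1 CD4 library, either isotype PD-1+ library or treated PD-1+ replicate 2 ended it.

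Read across populations, the isotype PD-1- Tregs were the low group for both genes. In the contrasts within 1 treatment, isotype PD-1+ Tregs had more Tox than isotype PD-1- Tregs (log2 change 2.31 ± 0.37, adjusted p = 0.0136) and more Nfatc1 (log2 change 2.90 ± 0.50, adjusted p = 0.0195). Isotype PD-1- Tregs had less than isotype CD4 T cells of Tox (log2 change -1.73 ± 0.36, adjusted p = 0.0454) and of Nfatc1 (log2 change -2.65 ± 0.50, adjusted p = 0.0266), where 0.96% of genes passed. Under anti-PD-L1 no member passed between populations, where 0.841% of genes passed between PD-1- Tregs and CD4 T cells, and 0.0372% between PD-1+ Tregs and CD4 T cells. Tox did not differ past the threshold between PD-1+ and PD-1- Tregs there (log2 change -0.044 ± 0.32, adjusted p = 1). Over both treatments, Tox passed as higher in PD-1+ Tregs at 309 ± 46.0 CPM, against 198 ± 192 CPM in PD-1- Tregs (log2 change 1.13 ± 0.24, adjusted p = 0.0234), although the libraries overlapped. It passed in 19 of 24 alternatives (adjusted p 0.000235 to 0.185), and not without isotype PD-1- replicate 1 (adjusted p = 0.0573) or isotype PD-1+ replicate 2 (0.0779). All 5 PD-1+ Treg libraries lay above all 5 CD4 T cell libraries for Tox, at 309 ± 46.0 against 193 ± 21.3 CPM, without passing (log2 change 0.66 ± 0.23, adjusted p = 0.32). Within populations Tox went with Nfatc1 (r = 0.69) and with Nr4a1 (r = 0.80) over the 14 libraries, as a description. The genes most like Tox were Strada (r = 0.95), Coq6 (r = 0.93) and Lrba (r = 0.93), and those most like Nfatc1 were Pola1 (r = 0.96), Akt1 (r = 0.94) and Zfp212 (r = 0.93).

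**Figure D4:**
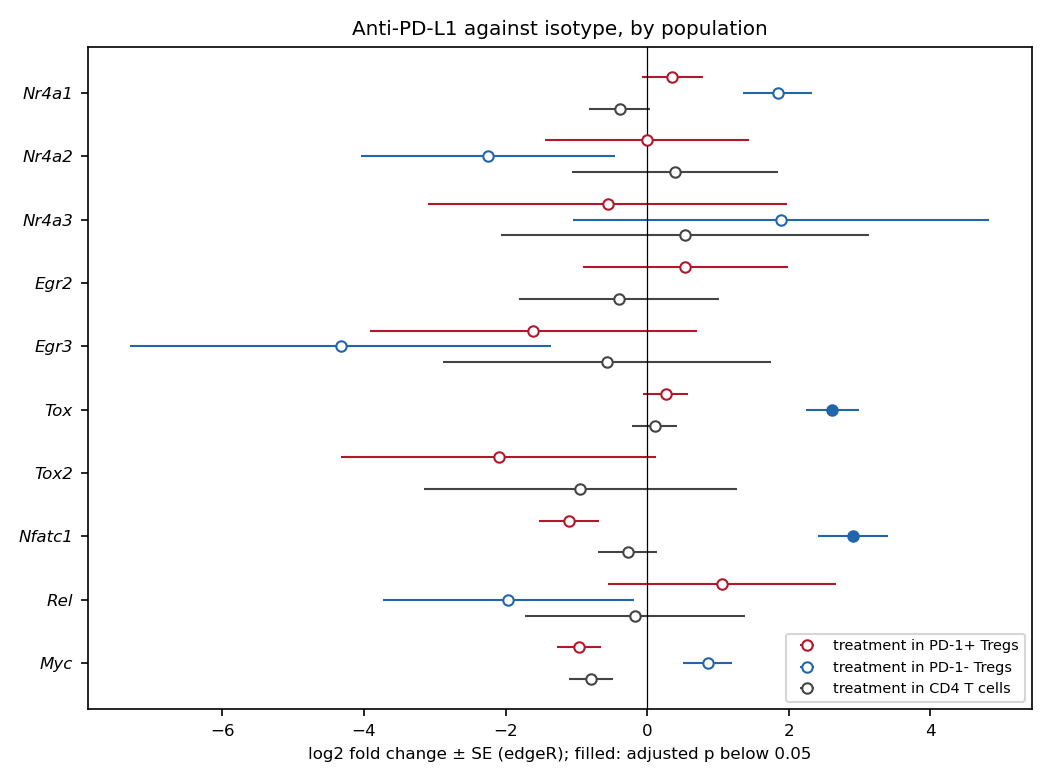
Points give each member's log2 fold change under anti-PD-L1 against isotype (x axis, ± SE from edgeR) in the 3 populations, coloured by population, and filled where the adjusted p was below 0.05. Members with no read in an arm are left out there. Tox and Nfatc1 in PD-1- Tregs are the filled points, and Myc lies right of 0 in PD-1- Tregs and left of 0 in the other populations.

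Nr4a1, an immediate early gene often used as a readout of receptor signalling, was high in every group. In PD-1+ Tregs, Nr4a1 stood at 539.8, 470.2 and 197 CPM in the anti-PD-L1 libraries and 218 and 410.4 CPM in the isotype libraries. In PD-1- Tregs it stood at 426 and 529.6 CPM under anti-PD-L1 and 91.1 and 175 CPM under isotype. CD4 T cells had 399, 235 and 312 CPM of it under anti-PD-L1 and 412 and 413 CPM under isotype. In PD-1- Tregs both treated libraries lay above both isotype libraries, at 478 ± 73.5 and 133 ± 59.4 CPM, but the change did not pass (log2 change 1.84 ± 0.49, adjusted p = 0.0689). It passed with no filter on low counts (adjusted p = 0.0415) and with DESeq2 (adjusted p = 0.00463), with limma on log2(RPKM + 0.1) (0.0498) and without treated PD-1+ replicate 3 (0.0294), and over all alternatives the adjusted p ran from 0.00463 to 0.705. All treated CD4 T cell libraries lay below both isotype libraries, also without passing (log2 change -0.39 ± 0.43, adjusted p = 1). PD-1+ Tregs overlapped (log2 change 0.36 ± 0.44, adjusted p = 1). Populations did not differ past the threshold (PD-1+ against PD-1- Tregs, log2 change 0.50 ± 0.32, adjusted p = 0.44; PD-1- Tregs against CD4 T cells, log2 change -0.52 ± 0.32, adjusted p = 0.328). Egr1, an immediate early gene that receptor signalling and tissue dissociation both induce, stood at 109 and 255 CPM in treated and 49.7 and 91.0 CPM in isotype PD-1- Tregs. None of 17 dissociation and stress genes passed in any of the treatment or population comparisons, where at most 4.28% of all genes did. By treatment the list's median log2 change was 0.18 for PD-1- Tregs, -0.30 for their PD-1+ counterparts and -0.31 for CD4 T cells. The difference between treatment effects was below 0 for 14 of the 17 in PD-1+ minus PD-1- cells (median -0.73, 47.7% of all genes). In PD-1- cells minus CD4 T cells it was above 0 for 13 (median 0.92), while 49.7% of all genes were below 0. Their part in the Nr4a1 values was not tested. The genes most like Nr4a1 were Nrbp1 (r = 0.92), Lcmt1 (r = 0.91) and Rtn3 (r = 0.90).

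Myc, the growth regulator induced by receptor and cytokine signals (chr15:61985341-61990361), ran in opposite directions between populations without passing in any. In PD-1+ Tregs, Myc stood at 159, 104 and 154 CPM in the anti-PD-L1 libraries and 319.9 and 222 CPM in the isotype libraries. In PD-1- Tregs it stood at 266 and 436 CPM under anti-PD-L1 and 196 and 192 CPM under isotype. CD4 T cells had 207, 178 and 133 CPM of it under anti-PD-L1 and 329 and 270.2 CPM under isotype. Treated libraries lay above isotype libraries without overlap in PD-1- Tregs (log2 change 0.85 ± 0.35, adjusted p = 0.207). They lay below them without overlap in PD-1+ Tregs (log2 change -0.96 ± 0.31, adjusted p = 0.595) and in the CD4 T cells (log2 change -0.79 ± 0.31, adjusted p = 1). Without overlap, 2 members were lower and 1 higher in treated PD-1+ Tregs, where 0.0149% of genes were called. Of all genes tested there, 11.5% were lower and 7.69% higher without overlap. Among treated CD4 T cells 2 members were lower without overlap, where 0.00744% of genes were called, and 15.5% of all genes were lower without overlap. In PD-1- Tregs 4 members were higher without overlap and 1, Nr4a2 with 1 and 5 reads in all, was lower. There 12.5% of all genes were higher and 14.0% lower in this way. Myc itself did not pass between populations (PD-1+ against PD-1- Tregs, log2 change -0.43 ± 0.24, adjusted p = 0.333; PD-1- Tregs against CD4 T cells, log2 change 0.20 ± 0.24, adjusted p = 0.687). The gene most like it was Slc50a1 (r = 0.82).

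Rel, the NF-kB subunit c-Rel, which opens the Foxp3 locus during Treg development (chr11:23736847-23770969), varied widely between PD-1- libraries. In PD-1+ Tregs, Rel stood at 194, 97.4 and 104 CPM in the anti-PD-L1 libraries and 34.0 and 93.1 CPM in the isotype libraries. In PD-1- Tregs it stood at 0 and 28.5 CPM under anti-PD-L1 and 107 and 3.62 CPM under isotype. CD4 T cells had 59.8, 53.8 and 60.3 CPM of it under anti-PD-L1 and 75.7 and 54.5 CPM under isotype. In PD-1+ Tregs all treated libraries lay above both isotype libraries (log2 change 1.05 ± 1.61, adjusted p = 1), while in PD-1- Tregs each treatment held 1 library of under 5 CPM and 1 of over 25 CPM. It passed no comparison. Within populations Rel went against Nfatc1 (r = -0.64), as a description. The genes most like it were Nagk (r = 0.96), Zfc3h1 (r = 0.96) and Krtcap3 (r = 0.96).

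Other genes of the receptor pathway were taken from lists, as counts of those that passed. Of 24 NFAT and calcineurin genes, 1 rose and 1 fell in treated PD-1- Tregs, where 2.66% of all genes passed. Cabin1, an inhibitor of calcineurin, rose to 15.4 and 118 CPM in the treated libraries, against 0.0905 and 0.0931 CPM in the isotype libraries (adjusted p = 0.00683). It was the 1 gene of the list that passed between PD-1- Tregs and each other population, as lower in PD-1- Tregs. Isotype means were 25.4 ± 12.5 CPM in PD-1+ Tregs and 76.3 ± 11.3 CPM in CD4 T cells. Under anti-PD-L1 they were 66.8 ± 72.7 CPM in PD-1- Tregs, 57.9 ± 36.3 CPM in PD-1+ Tregs and 70.1 ± 23.7 CPM in CD4 T cells. Gsk3b, a kinase that returns NFAT to the cytoplasm, fell to 464 ± 165 CPM, against 1785 ± 456 CPM under isotype (log2 change -1.94 ± 0.38, adjusted p = 0.0194). The list's median log2 change was 0.23 in PD-1- Tregs, 0.20 in their PD-1+ counterparts and 0.15 in CD4 T cells. That of all genes was 0 in both Treg populations and -0.013 in CD4 T cells. No NFAT gene of the list passed in treated PD-1+ Tregs or CD4 T cells, where 0.0149% and 0.00744% of all genes passed. Of 18 genes of the NF-kB branch, 1 passed in PD-1- Tregs against CD4 T cells, where 3.6% of all genes did. This was Nfkbia, the inhibitor that NF-kB itself induces. It was higher in PD-1- Tregs at 871 ± 64.8 CPM, against 603 ± 72.0 CPM in CD4 T cells (log2 change 0.56 ± 0.12, adjusted p = 0.0308). In PD-1+ Tregs it averaged 887 ± 79.5 CPM. Fitted log2 changes of PD-1- Tregs against CD4 T cells were below 0 for 13 of the 18 (median -0.24). They were below 0 for 72.9% of all genes (median -0.94). Of 13 AP-1, ATF and IRF4 genes none passed by treatment, where at most 2.66% of all genes did. Batf3 had no read in PD-1- Tregs, and stood at 14.3 ± 8.94 CPM in PD-1+ Tregs (adjusted p = 0.0101) and 13.2 ± 2.76 CPM in CD4 T cells (adjusted p = 0.0121). It is also a dendritic cell gene. Of 6 relatives of Egr and Tox, 4 were tested and none passed in any treatment or population comparison, nor did any of 11 tested partners of Myc. At most 4.28% of all genes passed in any of these comparisons.

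None of 24 growth genes bound by Myc passed by treatment in any single population, where 0.00744 to 2.66% of all genes passed. Their fitted log2 changes were below 0 for 19 of 24 in PD-1+ Tregs (median -0.58), where 46.4% of all genes were below 0. In PD-1- Tregs they were below 0 for 17 of 24 (median -0.60; 42.2% of all genes) and in CD4 T cells for 23 of 24 (median -0.46; 51.0% of all genes). Averaged over populations 1 fell, where 1.23% of all genes passed. This was Npm1, the nucleolar protein nucleophosmin, at 182 ± 42.7 CPM under anti-PD-L1 and 352 ± 103 CPM under isotype (SD, n = 8 and 6; log2 change -0.89 ± 0.18, adjusted p = 0.0362). Between the Treg populations 1 of the 24 passed, where 4.28% of all genes did. This was the cell cycle gene Ccnd2. It was lower in PD-1+ Tregs at 703 ± 116 CPM, against 1109.9 ± 177 CPM in PD-1- Tregs (log2 change -0.64 ± 0.15, adjusted p = 0.0394). The list ran the other way, with 15 of the 24 fitted as higher in PD-1+ Tregs (median log2 change 0.11). The median of all genes was 0.42 there, with 33.9% of them below 0.

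Among 34 further genes that receptor signalling induces, treated PD-1- Tregs had 1 that rose and 2 that fell, where 2.66% of all genes passed. Tigit, an inhibitory receptor, rose to 182 ± 38.6 CPM, against 41.3 ± 15.1 CPM under isotype (log2 change 2.14 ± 0.34, adjusted p = 0.00684). Rgs16, a regulator of G protein signalling, had no read in the treated libraries and 33.7 and 129 CPM in the isotype libraries (adjusted p = 0.00391). Spry2, a feedback inhibitor of the ERK branch, stood at 0 and 0.444 CPM under anti-PD-L1 and 69.8 and 109 CPM under isotype (adjusted p = 0.017). None of the 34 passed in treated PD-1+ Tregs or CD4 T cells, where 0.0149% and 0.00744% of all genes passed. Fitted log2 changes were below 0 for 12 of 34 in PD-1- Tregs (median 0.25) and for 42.2% of all genes. They were below 0 for 10 in PD-1+ Tregs (median 0.32, 46.4% of all genes) and 6 in CD4 T cells (median 0.70, 51.0%). Tigit averaged 735 ± 116 CPM in treated and 325 ± 20.4 CPM in isotype PD-1+ Tregs. In CD4 T cells its means were 305 ± 87.7 and 83.3 ± 2.68 CPM. Averaged over populations Tigit (log2 change 1.73 ± 0.19, adjusted p = 0.00115), the costimulatory receptor Icos (log2 change 1.25 ± 0.18, adjusted p = 0.00797) and Tnfrsf18, which encodes GITR (log2 change 0.87 ± 0.19, adjusted p = 0.0479), rose. In that average, where 1.23% of all genes passed, Cd69, the early activation antigen, fell (log2 change -0.95 ± 0.16, adjusted p = 0.0126). Rgs16 passed as lower too (adjusted p = 0.0479), with no read in treated PD-1- libraries, although its mean over all libraries was 67.8 ± 60.7 CPM under anti-PD-L1 and 46.0 ± 44.2 CPM under isotype. Between the Treg populations 6 were higher and 2 lower in PD-1+ Tregs, where 3.8% of all genes passed as higher and 4.28% in either direction. Pdcd1, which encodes the PD-1 used in the sort, averaged 159.6 ± 71.8 CPM in the PD-1+ cells, against 38.4 ± 11.5 CPM in the PD-1- cells. Tnfrsf9, which encodes 4-1BB, averaged 289 ± 86.2 CPM in the PD-1+ cells, against 99.8 ± 14.2 CPM in the PD-1- cells (log2 change 1.42 ± 0.30, adjusted p = 0.0215). Tigit, Lag3, Rgs16 and Spry2 were the other 4 that were higher. For Rgs16 and Spry2 that order held under anti-PD-L1, where Rgs16 averaged 126 ± 47.4 CPM in PD-1+ Tregs and had no read in PD-1- Tregs, and Spry2 averaged 81.5 ± 29.4 and 0.222 ± 0.314 CPM. Under isotype their means ran the other way, at 43.8 ± 18.9 CPM in PD-1+ and 81.4 ± 67.5 CPM in PD-1- Tregs for Rgs16, and 48.5 ± 32.8 and 89.4 ± 27.8 CPM for Spry2. Dgka, a brake on receptor signalling, was lower at 156 ± 45.7 CPM, against 489 ± 212 CPM in PD-1- Tregs (log2 change -1.61 ± 0.30, adjusted p = 0.0111), and Cd69 was lower at 358 ± 179.6 CPM, against 660.4 ± 244 CPM (log2 change -0.83 ± 0.20, adjusted p = 0.0367). Against CD4 T cells, 6 were higher and 1 lower in PD-1+ Tregs, where 0.35% of all genes passed. In PD-1- Tregs 5 were higher and 3 lower than in CD4 T cells, where 3.6% of all genes passed. Il2ra, which encodes CD25 and was used in the sort, Tnfrsf4, Tnfrsf18 and Ctla4 were higher in both. Il2ra, Tnfrsf18 and Ctla4 also belong to the Treg marker list above. Both counts of higher genes thus include genes by which Tregs are told apart from other T cells.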

How the data were processed

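The authors deposited 1 table of raw read counts and 1 of RPKM values, by gene and library, per the file headers. HISAT2 2.0.4, HOMER 3.12, SAMtools, DESeq2 and the build mm10 are named, without their roles, in the submitters' processing notes. Libraries were made with Smart-seq2, per the labels' protocols, which adds no molecular identifiers. The annotation, counting settings and use of strand were not given in sources used here, so reads of overlapping or near-identical genes cannot be told apart. The ratio of a member's RPKM to its count, scaled per library, spread by at most 1.84-fold over libraries (Egr3).

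Counts were tested with edgeR 4.0.16 in R 4.3.3. Genes kept by filterByExpr at a minimum count of 10 numbered 13434 and held all 10 members. TMM scaling and the robust quasi-likelihood test were run in 1 fit of 6 group means over 14 libraries, with Benjamini-Hochberg adjustment over all genes and a threshold of 0.05. "Rose" and "fell" mean past it. The SE is the size of the log2 change over the square root of F. CPM are TMM-scaled without a prior count, which was 2 for correlations. The floor is 3 counts per library, and covers counting error only. The scripts were tested on simulated counts for 1 comparison, PD-1- Tregs against CD4 T cells. The simulated spread was capped at the median over genes, and changes were set only in genes of higher level. That test therefore does not cover genes near 0 or of wider spread.

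The members and lists were chosen with earlier results of these data known. Some genes and the results that need them are not reported here. Other genes are named where they passed or by the likeness rule (the 3 highest Pearson r, and at least 10 CPM). Alternatives were DESeq2 1.42.0, its size factors in edgeR, no filter, limma-voom, limma 3.58.1 on log2 RPKM plus 1 or 0.1, only the libraries compared, replicate blocks, each library left out and the 3 libraries with Y-linked reads left out.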

Additional observations from a re-analysis of the deposited data

Results flagged for a closer look

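The treatment effect differed between populations by a test for Tox and Nfatc1, and in direction alone for Myc and Nr4a1. For Tox it was lower in PD-1+ than in PD-1- Tregs (log2 change -2.35 ± 0.48, adjusted p = 0.0351, edgeR's interaction test over all genes). It was higher in PD-1- Tregs than in CD4 T cells (log2 change 2.51 ± 0.48, adjusted p = 0.0291). For Nfatc1 the difference was -4.01 ± 0.65 in PD-1+ minus PD-1- Tregs (adjusted p = 0.0107) and 3.18 ± 0.64 in PD-1- Tregs minus CD4 T cells (adjusted p = 0.0374). For Myc and Nr4a1 every treated library lay on opposite sides of the isotype libraries in 2 populations, but the differences did not pass. Myc gave -1.82 ± 0.47 in PD-1+ minus PD-1- Tregs (adjusted p = 0.0871) and 1.65 ± 0.47 in PD-1- Tregs minus CD4 T cells (adjusted p = 0.152). Nr4a1 gave 2.23 ± 0.64 in PD-1- Tregs minus CD4 T cells (adjusted p = 0.155). All of these rest on 2 treated and 2 isotype PD-1- libraries, the groups whose replicates differed most, as given above. Groups of 2 or 3 were too small to look for single libraries far from the rest.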

How the results depend on the processing

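Of 2317 values of single members under alternatives, 2195 kept direction and side of the threshold, 86 lost their call, 35 gained one and 1 changed direction. That was Tox in PD-1+ against PD-1- Tregs within anti-PD-L1 libraries (-0.044 on the log2 scale). Another 105 values, called in neither fit and counted as kept, changed sign. Counts of calls moved more, and the causes were not tested, other than that fewer libraries entered some fits. The replicate block is a fit only, and joins libraries of both treatments by number. A block of number within each treatment was not fitted. Same-numbered libraries had correlations of deviations of at most 0.0740. The 3 libraries with Y-linked reads, all of bracketed number 3, had only 0.0164 to 0.0354 among themselves. This check therefore cannot tell whether same-numbered libraries share a source. The numbers were not taken as pairs, because no label says what they mark. With the bracketed number as replicate block, calls ended for Tox averaged over populations (adjusted p = 0.224) and in its treatment effect between PD-1- Tregs and the PD-1+ Tregs (0.101) or CD4 T cells (0.0999), for Nfatc1 in the effect between PD-1- Tregs and CD4 T cells (0.107) and for Nr4a2 in PD-1- Tregs against CD4 T cells (0.0667). By treatment in PD-1+ Tregs, the count of called genes (2) became 725 with DESeq2, 153 with limma-voom, 0 with only the libraries compared in the fit, 58 with limma on log2(RPKM + 1), 54 with limma on log2(RPKM + 0.1), 1 with the title number as replicate block and with the bracketed number as replicate block, 4 without the libraries with Y-linked reads and 1 to 4 on leaving out 1 library. By treatment in PD-1- Tregs, the count of called genes (358) became 2849 with DESeq2, 682 with limma-voom, 0 with only the libraries compared in the fit, 546 with limma on log2(RPKM + 0.1), 146 with the title number as replicate block, 128 with the bracketed number as replicate block, 690 without the libraries with Y-linked reads and 196 to 1008 on leaving out 1 library. The count of called members (2) became 0 with limma-voom and with only the libraries compared in the fit and 2 to 3 on leaving out 1 library. By treatment in CD4 T cells, the count of called genes (1) became 3 with no filter on low counts, 52 with DESeq2, 6 with only the libraries compared in the fit, 21 with limma on log2(RPKM + 0.1), 2 without the libraries with Y-linked reads and 0 to 2 on leaving out 1 library. Averaged over populations, the count of called genes (165) became 2019 with DESeq2, 362 with limma-voom, 105 with limma on log2(RPKM + 1), 29 with the title number as replicate block, 18 with the bracketed number as replicate block, 367 without the libraries with Y-linked reads and 33 to 763 on leaving out 1 library. The count of called members (1) became 0 with limma-voom, with limma on log2(RPKM + 1), with the title number as replicate block, with the bracketed number as replicate block and without the libraries with Y-linked reads and 0 to 1 on leaving out 1 library. In PD-1+ against PD-1- Tregs, the count of called genes (575) became 3065 with DESeq2, 1318 with limma-voom, 33 with only the libraries compared in the fit, 173 with the title number as replicate block, 241 with the bracketed number as replicate block, 238 within anti-PD-L1 libraries, 117 within isotype libraries and 281 to 1301 on leaving out 1 library. The count of called members (3) became 6 with DESeq2, 0 with only the libraries compared in the fit and within anti-PD-L1 libraries, 1 with the title number as replicate block and 2 to 4 on leaving out 1 library. In PD-1+ Tregs against CD4 T cells, the count of called genes (47) became 71 with no filter on low counts, 832 with DESeq2, 571 with limma-voom, 152 with only the libraries compared in the fit, 193 with limma on log2(RPKM + 1), 319 with limma on log2(RPKM + 0.1), 5 within anti-PD-L1 libraries and within isotype libraries and 11 to 74 on leaving out 1 library. In PD-1- Tregs against CD4 T cells, the count of called genes (484) became 3310 with DESeq2, 3331 with limma-voom, 1466 with only the libraries compared in the fit, 968 with limma on log2(RPKM + 1), 1771 with limma on log2(RPKM + 0.1), 100 with the title number as replicate block, 169 with the bracketed number as replicate block, 113 within anti-PD-L1 libraries, 129 within isotype libraries and 147 to 1235 on leaving out 1 library. The count of called members (2) became 5 with DESeq2, 4 with limma-voom, 0 with the title number as replicate block and within anti-PD-L1 libraries, 1 with the bracketed number as replicate block and 1 to 3 on leaving out 1 library. For the treatment effect in PD-1+ minus PD-1- Tregs, the count of called genes (196) became 2268 with DESeq2, 409 with limma-voom, 0 with only the libraries compared in the fit, 93 with limma on log2(RPKM + 1), 32 with the title number as replicate block, 44 with the bracketed number as replicate block, 413 without the libraries with Y-linked reads and 33 to 878 on leaving out 1 library. The count of called members (2) became 0 with limma-voom, with only the libraries compared in the fit and with the title number as replicate block, 1 with limma on log2(RPKM + 1), with the bracketed number as replicate block and without the libraries with Y-linked reads and 0 to 3 on leaving out 1 library. For the effect in PD-1+ Tregs minus CD4 T cells, the count of called genes (0) became 312 with DESeq2, 6 with limma-voom, 1 with limma on log2(RPKM + 1) and 0 to 3 on leaving out 1 library. For the effect in PD-1- Tregs minus CD4 T cells, the count of called genes (131) became 1871 with DESeq2, 308 with limma-voom, 62 with only the libraries compared in the fit, 14 with limma on log2(RPKM + 1), 20 with the title number as replicate block, 30 with the bracketed number as replicate block, 347 without the libraries with Y-linked reads and 16 to 762 on leaving out 1 library. The count of called members (2) became 4 with DESeq2, 0 with limma-voom, with only the libraries compared in the fit, with limma on log2(RPKM + 1), with the title number as replicate block and with the bracketed number as replicate block, 1 with limma on log2(RPKM + 0.1) and without the libraries with Y-linked reads and 0 to 3 on leaving out 1 library. In PD-1+ Tregs against CD4 T cells 48.9% of calls were higher, against 24.8% with DESeq2, 10.2% with limma-voom and 19.7 and 15.0% with limma on log2(RPKM + 1) and log2(RPKM + 0.1). By treatment in PD-1- Tregs that share was 51.7%, and 62.2% with limma on log2(RPKM + 1). Averaged over populations it was 58.8%, and 40.3% with limma-voom. For the treatment effect in PD-1+ minus PD-1- Tregs it was 57.7%, and 26.9% with limma on log2(RPKM + 1). With 2 or 3 libraries a group, small changes and genes of few reads are not resolved.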
